A study of Mus musculus with 12 samples.

Results

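Transcripts of actin, of the filament bundler fascin and of proteins that bind actin monomers or link filaments to the membrane were examined in mouse splenic dendritic cells, the antigen-presenting cells that capture material in tissue and display it to T cells. The 10 genes, of 8251 on the array, were Actb, Actg1, Pfn1, Tmsb4x, Tmsb10, Cfl1, Fscn1, Marcks, Marcksl1 and Coro1a. They were chosen by name from a list drawn up with earlier results of these arrays known. Which measured values guided that list is not recorded, so every culture difference below is a description of these arrays and gives the choice of genes no support. A probe set was a member where the platform annotation gave it 1 gene symbol and that symbol was in the list, which gave 11 probe sets of the 12422 that are not controls. Actb had 2 probe sets and the other 9 genes had 1 each, and all 11 passed the filter on dim values that left 6159 probe sets for testing. Actin control probe sets of the array were read as a check and not tested.

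Cells with high CD11c, the surface protein used to gate dendritic cells, were sorted into CD4+ cells, CD8+ cells and double-negative (DN) cells that carry neither CD4 nor CD8. RNA was taken directly upon isolation (fresh) or after 2 h in tissue culture medium at 37 °C (cultured). Each of the 6 groups had 2 arrays, numbered as experiments 1 and 2. Strain, age and any pooling of mice were not given in the sources used here, and no genetic change or added agent is named. Unless stated otherwise, the p-values below measure the spread between the 2 arrays of each group, which may be technical.

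Cells move and change shape by adding actin monomers to filaments and taking them off again. Profilin delivers monomers to growing ends, thymosins hold monomers in reserve, and cofilin severs old filaments and returns their monomers to the pool. Fascin packs filaments into straight bundles, and in dendritic cells it is known for the long processes of mature cells and for their contact with T cells. Cultured dendritic cells are known to mature spontaneously, and the comparison of fresh with cultured cells shows which of these transcripts differed at the single time sampled.

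Values are Average Difference intensities, the mean over a probe set's pairs of the signal of the matching probe minus that of its mismatched partner. They are on a linear scale that can fall below 0. The trimmed mean was 150.0 on all 12 arrays. The root mean square of the values below 0, a measure of noise, was 108 on cultured CD4+ replicate 1 and 26.2 to 82.5 on the other 11. The Gapdh controls at the 3′ and 5′ ends, whose ratio rises where RNA is degraded, had a ratio of 2.55 on fresh CD8+ replicate 1, 1.97 on cultured CD4+ replicate 1 and 1.34 on cultured DN replicate 1, and 0.89 to 1.04 on the others. For fresh CD8+ replicate 1, 1 label reads CD4 positive against the title's CD8+, and its Cd4 and Cd8a levels go with CD8+. All 8 dendritic cell markers examined were above the detection floor of 91.4 on every array. Their summed intensity was 27445 to 47566 on fresh arrays and 59934 to 90757 on cultured arrays. The sum is carried by the MHC class II pathway genes H2-Aa, H2-Ab1, H2-Eb1 and Cd74, each of which read higher on every cultured than on every fresh array (H2-Aa 4822 to 12325 fresh and 14856 to 19302 cultured). The other 4 did not move that way, with Itgax at 1450 to 3210 fresh and 874 to 2374 cultured, Flt3 at 1617 to 3103 and 613 to 1932, Ciita at 256 to 1284 and 188 to 521, and Zbtb46 at 246 to 406 and 175 to 477. Of the markers of other cells, those above the floor on at least 1 array were 1 of 5 for T cells (Cd5, on 7 arrays), 4 of 5 for B cells (Ms4a1 on 12 and Cd79b on 9 among them), 1 of 3 for NK cells, 2 of 2 for plasmacytoid dendritic cells (Tcf4 on 12), 4 of 5 for macrophages, 3 of 8 for neutrophils (Camp on 7 among them), 1 of 3 for red cells (Hba-a1 on 12), 1 of 3 for platelets (Gp9 on 8) and 2 of 6 for stromal cells (Col1a2 on 12). Cd3e, Cd3d and Cd3g of T cells, Pf4 of platelets and Col3a1 and Dcn of stromal cells were below it on all arrays. These genes were picked after their values were seen, so they do not show that such cells were absent. Cd3e read below 0 throughout, at -114 to -33.4 on fresh and -250 to -76.6 on cultured arrays. The summed B cell markers were 375 to 1158 on fresh and 294 to 1011 on cultured arrays, and the summed stromal markers 181 to 419 and 301 to 908. The summed macrophage markers were 3008 to 3069 on fresh CD4+ arrays and 781 to 2029 on the other arrays. The part of all these markers in the results below was not tested. In sorted populations such as these, fewer cells of a type and less RNA per cell cannot be told apart.

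The sequences upstream of 3 members are shown first because these genes, Actg1, Tmsb4x and Marcksl1, were all higher after culture. Each run is the 250 bases before a transcription start in RefSeq's table for GRCm38.p6, written 5′ to 3′ on the gene's own strand. Capitals mark GC boxes (GGGCGG on either strand, or its complement CCGCCC, overlaps counted) and the CArG box, the site that serum response factor is known to bind in actin and other cytoskeletal genes. Actg1 lies on the reverse strand of chromosome 11 and its window is chr11:120348496-120348745. Tmsb4x lies on the reverse strand of the X chromosome, with its window at chrX:167209219-167209468. That window lies inside the gene's span, chrX:167207093-167213479, so the start it precedes is an internal one. Marcksl1 lies on the forward strand of chromosome 4, with its window at chr4:129513331-129513580.
Actg1: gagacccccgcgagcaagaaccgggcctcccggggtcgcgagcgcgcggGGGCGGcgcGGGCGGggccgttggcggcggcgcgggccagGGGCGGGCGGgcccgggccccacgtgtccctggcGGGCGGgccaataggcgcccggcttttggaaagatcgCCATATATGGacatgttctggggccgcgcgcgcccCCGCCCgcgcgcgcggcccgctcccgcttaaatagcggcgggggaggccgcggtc
Tmsb4x: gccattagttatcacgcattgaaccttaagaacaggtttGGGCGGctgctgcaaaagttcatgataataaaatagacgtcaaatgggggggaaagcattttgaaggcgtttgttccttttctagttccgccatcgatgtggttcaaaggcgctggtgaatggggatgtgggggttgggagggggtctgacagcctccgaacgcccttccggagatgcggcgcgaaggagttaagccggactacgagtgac
Marcksl1: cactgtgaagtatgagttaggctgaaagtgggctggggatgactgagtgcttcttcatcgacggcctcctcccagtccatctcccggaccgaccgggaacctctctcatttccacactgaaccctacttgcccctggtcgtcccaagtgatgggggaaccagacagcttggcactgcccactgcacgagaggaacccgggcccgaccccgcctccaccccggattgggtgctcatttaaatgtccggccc

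The Actg1 window held 1 CArG box, CCATATATGG, whose first base lies 90 bases before the start, and 6 GC boxes. The Tmsb4x window held 1 GC box and the Marcksl1 window none, and neither held a CArG box. Among all 32851 promoter windows of the table, 1.47% held a CArG box, 32.7% a GC box and 7.59% the TATA box TATAAA. RefSeq's table matched 8 of the 10 genes with 11 windows. It had none for Actb and Marcks, so their upstream sequence was not read. The counts that follow are per gene, and a gene can have several windows, while the percentages above are per window. Actg1 was the 1 gene of the 8 with a CArG box, 5 of the 8 had a GC box, and Fscn1 had the 1 TATA box, beginning 31 bases before its start. These matches are letters in a window and say nothing on whether a factor was bound.

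Of the members, 5 of the 11 probe sets rose after culture on the mean over the 3 subsets, and none fell. They were the dimmer of the 2 Actb probe sets (3.73-fold, near the detection floor in fresh cells), Marcksl1 (2.88-fold), Tmsb4x (2.1-fold), Marcks (1.89-fold) and Actg1 (1.8-fold). Of all 6159 tested probe sets, 39.3% were called in this comparison, 17.0% as higher and 22.3% as lower. A call is an adjusted p under 0.05 in limma over all tested probe sets, and log2 differences are on a generalised log2 scale that stays defined below 0. The median log2 difference of the members was 0.85 and that of all tested probe sets -0.02. On 4 of the 11 probe sets all 6 cultured arrays were above all 6 fresh arrays, on none were they all below, and the other 7 overlapped. Over all tested probe sets these shares were 7.68% above and 10.1% below.

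**Figure D1:**
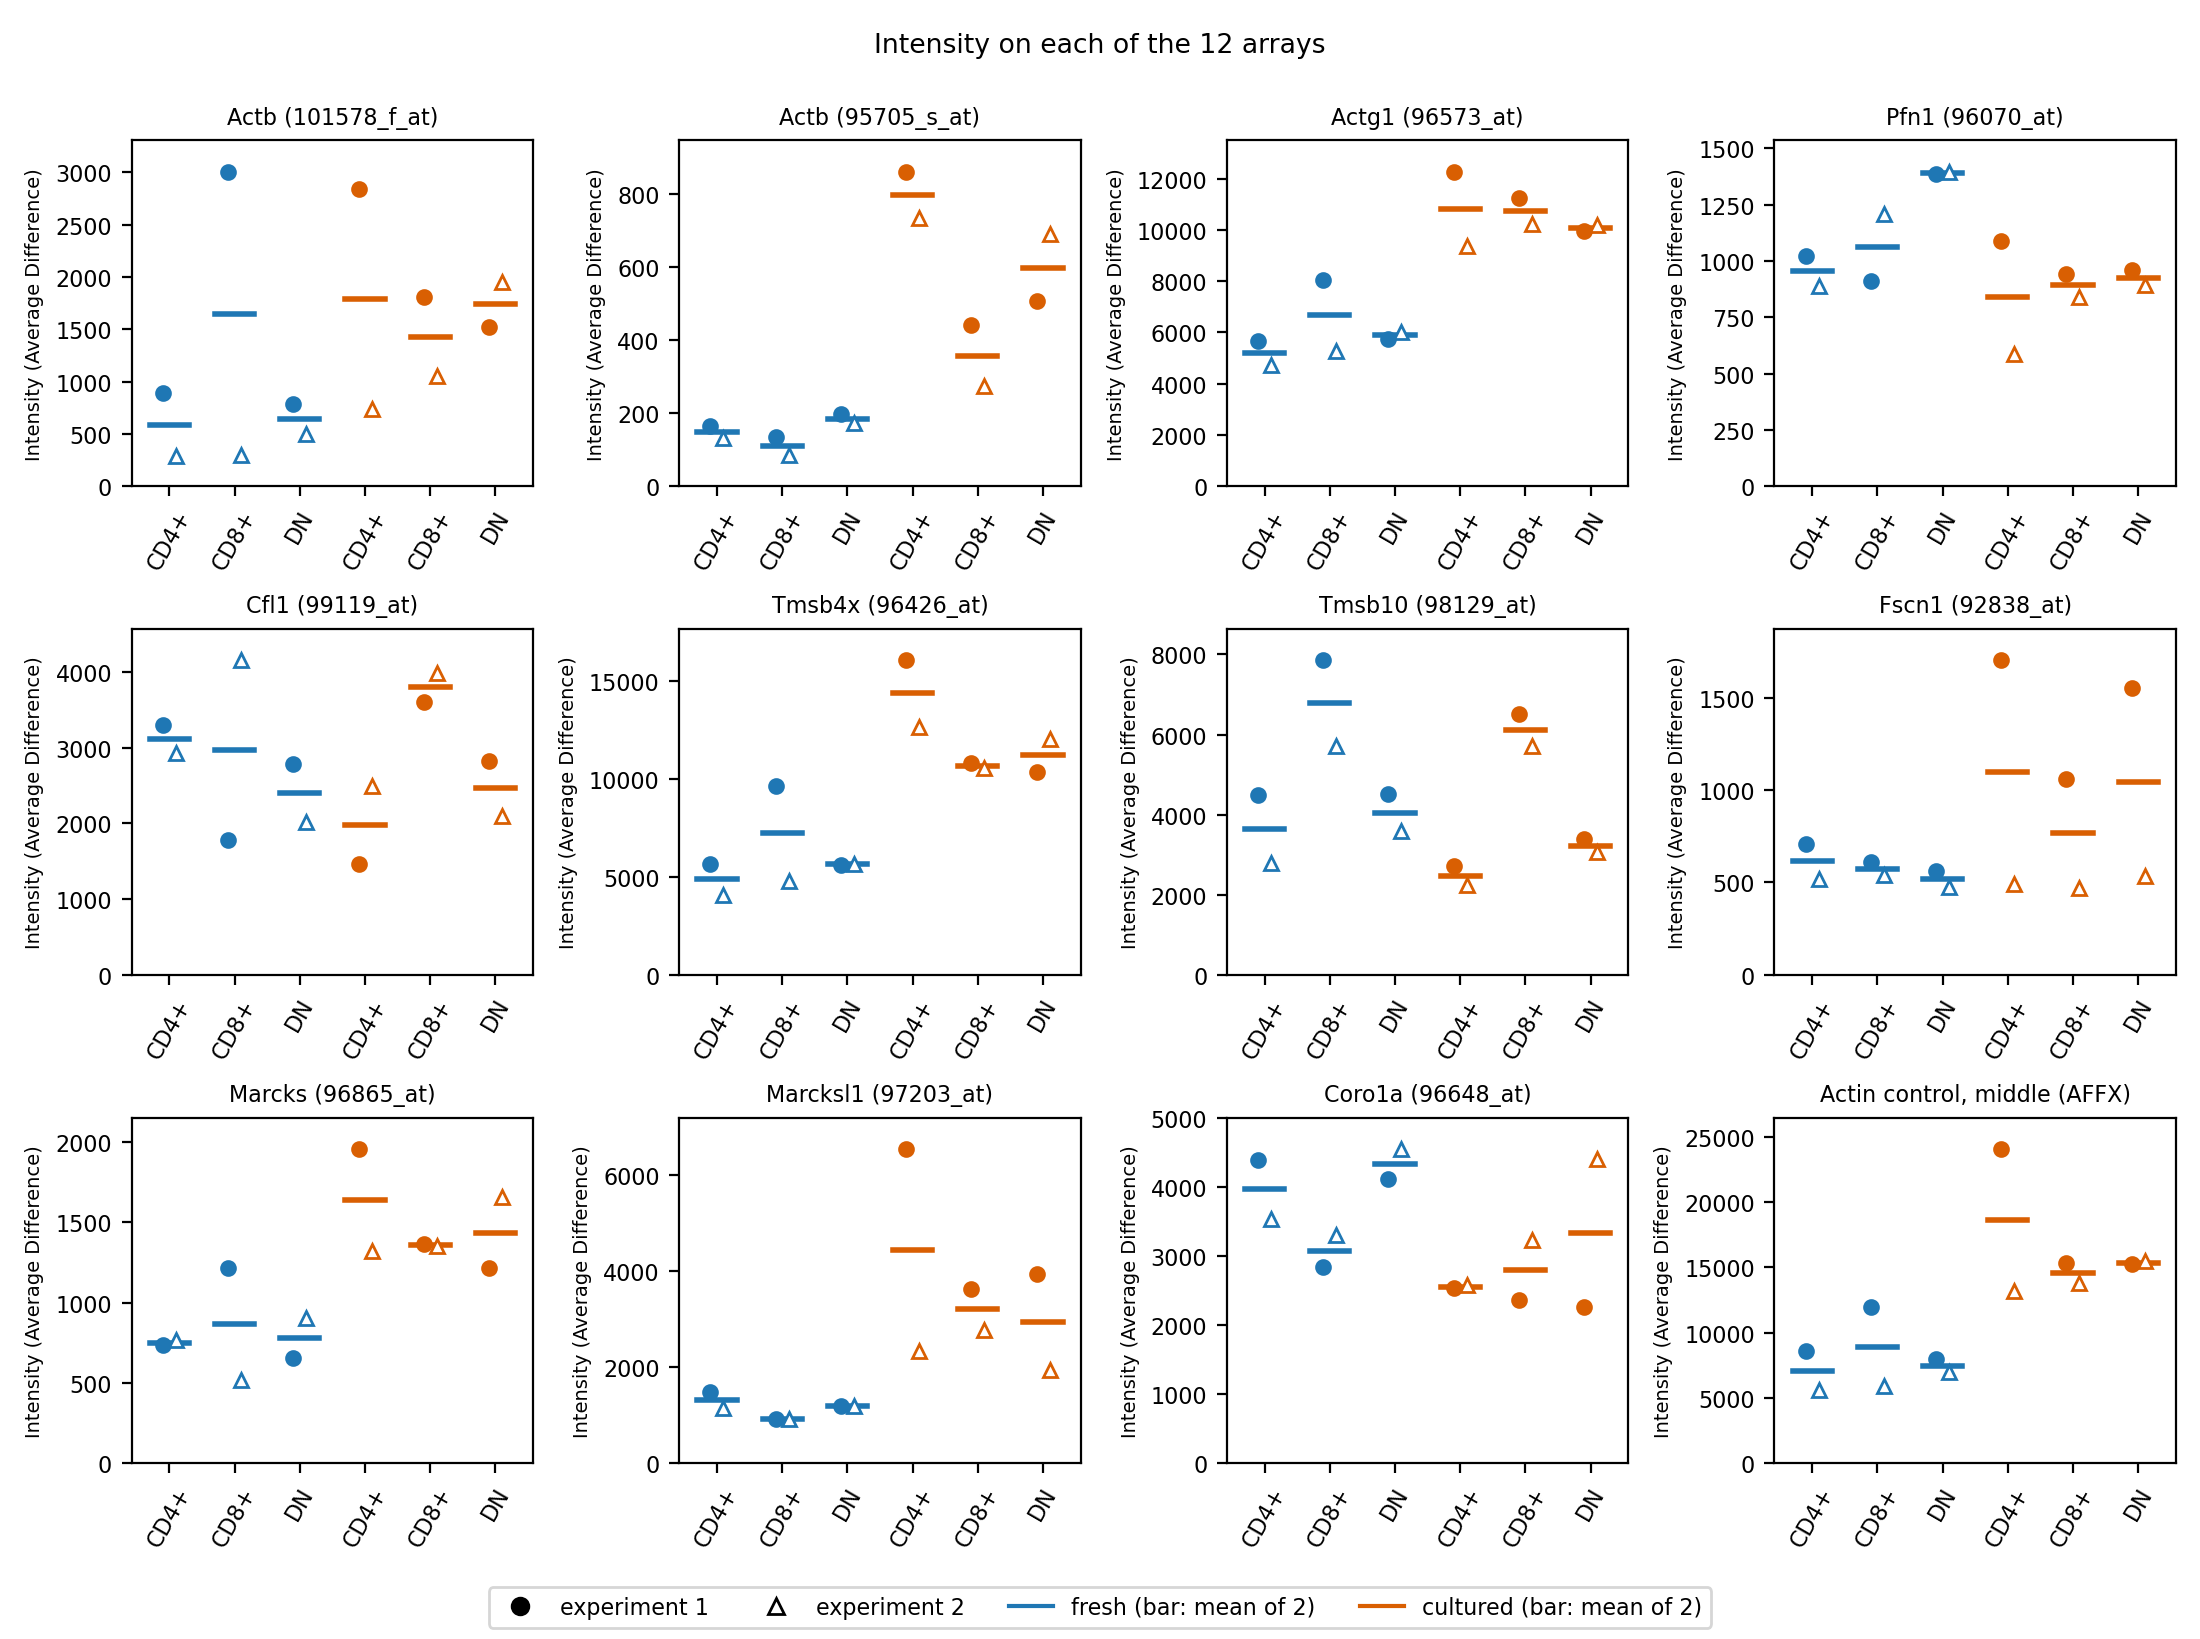
Intensity (Average Difference, linear axis from 0) of the 11 member probe sets and the middle actin control on each array, by subset; filled circles are experiment 1, open triangles experiment 2, blue fresh and orange cultured, and bars are means of 2. Cultured arrays lie above all fresh arrays for Actb _s_at, Actg1, Tmsb4x, Marcksl1 and the control, while Tmsb10 is highest in CD8+ cells and Fscn1 is high in the cultured arrays of experiment 1.

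Beta actin, encoded by Actb (chr5:142903115-142907976 in GRCm38.p6, the build of all gene positions here), forms the filaments at the leading edge of a moving cell. Its first probe set, whose identifier ends in _s_at, read 164.1 and 131.0 on the 2 fresh CD4+ arrays, 133.8 and 86.1 on the fresh CD8+ arrays, and 197.8 and 172.7 on the fresh DN arrays. After culture it read 860.7 and 735.7 in CD4+, 440.6 and 274.6 in CD8+, and 507.8 and 689.7 in DN cells. Every cultured array was above every fresh array, and the highest cultured values were those of CD4+ cells. Fresh CD8+ replicate 2, at 86.1, was below the detection floor, and the other fresh values were 131.0 to 197.8. The mean log2 difference was 1.90 ± 0.20 (SE), with a limma adjusted p of 4.75e-05. By subset the fold was 5.3 in CD4+ (adjusted p 0.0015), 3.11 in CD8+ (0.0161) and 3.16 in DN cells (0.0136).

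The other Actb probe set, whose identifier ends in _f_at, did not separate the states. By the array maker's naming, the suffix _f_at marks probes that match several members of a gene family, and _s_at marks probes that match several transcripts. It read 891.4 and 286.4 in fresh CD4+, 3004.3 and 295.6 in fresh CD8+ and 788.9 and 496.3 in fresh DN cells. On cultured arrays it read 2837.7 and 733.4, 1805.9 and 1053.7, and 1522.9 and 1953.7 in the same order. Fresh CD8+ replicate 1 gave the highest value of the 12 arrays, and fresh CD8+ replicate 2 the next to lowest, so the groups overlapped. The mean log2 difference was 1.17 ± 0.55 with an adjusted p of 0.108, and 0.0274 with the experiment number as a block. Without fresh CD8+ replicate 1, the array of highest Gapdh ratio, it was 1.73 (adjusted p 0.00928), and without cultured CD4+ replicate 2 it was 1.50 (0.0397). With all 3 of the high-ratio arrays dropped it was 1.46 (0.0208).

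The array's own actin controls gave a further reading of Actb at the 5′ end, the middle and the 3′ end of the transcript. The 3′ control read 4972.2 to 10057.3 on fresh and 13657.9 to 26807.9 on cultured arrays, and the 5′ control 5483.8 to 11072.7 and 12965.0 to 23180.2. For all 3 positions, every cultured array was above every fresh array. The mean folds after culture were 2.2 at the 5′ end, 2.09 in the middle and 2.49 at the 3′ end. In CD4+ cells they were 2.64, 2.57 and 3.39, in CD8+ cells 1.8, 1.73 and 1.84, and in DN cells 2.25, 2.06 and 2.48. The actin ratio of the 3′ end over the 5′ end ranged from 0.907 to 1.28, and exceeded 1 on 3 cultured arrays, both CD4+ arrays (1.16 and 1.28) and DN replicate 2 (1.15). The controls were not tested. Actb _s_at read far lower than the controls, at 86.1 to 197.8 on fresh and 274.6 to 860.7 on cultured arrays, and its fold of 3.73 was larger. Why these readings of 1 gene differed was not tested. The controls had higher medians than Actg1 and Tmsb4x in both states, so the limit given below for bright probe sets holds for them too.

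Gamma actin, the product of Actg1 (chr11:120345687-120348495), is the other actin isoform of non-muscle cells. Its intensity was 5676.1 and 4727.8 in fresh CD4+, 8051.6 and 5285.1 in fresh CD8+ and 5750.3 and 6022.1 in fresh DN cells. In the cultured cells it was 12269.8 and 9377.9, 11261.4 and 10222.4, and 9970.6 and 10178.5. The states did not overlap, and fresh CD8+ replicate 1 was the fresh array nearest to the cultured ones. Actg1 rose by 0.85 ± 0.15 on the log2 scale (adjusted p 0.00119), and was called in CD4+ cells (1.05 ± 0.25, adjusted p 0.0174). The adjusted p was 0.112 in CD8+ and 0.077 in DN cells, and 0.0419 in DN cells with the experiment number as a block.

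Thymosin beta 4, encoded by Tmsb4x (chrX:167207093-167213479), is the main protein that keeps actin monomers in reserve in blood cells. Fresh intensities were 5669.1 and 4063.6 in CD4+, 9649.3 and 4785.5 in CD8+ and 5611.1 and 5658.8 in DN cells. Cultured intensities were 16051.9 and 12676.1 in CD4+, 10802.4 and 10554.1 in CD8+ and 10373.7 and 12060.3 in DN cells. The 2 cultured CD4+ arrays were the highest of the 12, and fresh CD8+ replicate 1 was again the highest fresh array, below all cultured ones. Tmsb4x rose by 1.07 ± 0.18 on the log2 scale (adjusted p 0.00112). It was called in CD4+ cells (1.57 ± 0.32, 2.97-fold, adjusted p 0.00757), with adjusted p 0.245 in CD8+ and 0.0727 in DN cells (0.0406 in DN cells with the experiment number as a block).

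Actg1 and Tmsb4x lie among the 62 brightest probe sets, 1.0% of those tested, of which 59 were higher after culture with a median log2 difference of 0.55. Quantile normalization, which gives every array the same distribution, lowered the log2 difference of Actg1 to 0.21 (adjusted p 0.0949) and that of Tmsb4x to 0.43 (0.0065). It also turned Coro1a (-0.76, adjusted p 0.00397) and Tmsb10 (-0.70, 0.00147) into calls for lower. Whether the rise of the bright probe sets lies in the cells or in the scaling of the arrays was not tested. Actb _s_at had 1.94 under that setting.

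Marcks and Marcksl1 encode related proteins that bind membrane lipids, calmodulin and actin filaments and release the membrane when phosphorylated by protein kinase C. For Marcksl1 (chr4:129513581-129515981), fresh intensities were 1482.5 and 1138.1 in CD4+, 922.5 and 918.1 in CD8+ and 1186.7 and 1191.3 in DN cells. Cultured intensities were 6533.3 and 2333.0 in CD4+, 3615.2 and 2779.4 in CD8+ and 3936.6 and 1935.6 in DN cells. All cultured arrays were above all fresh ones, and in each subset replicate 1 was the higher cultured array. Marcksl1 rose by 1.53 ± 0.26 on the log2 scale (adjusted p 0.00109). By subset it was called in CD4+ (1.59 ± 0.45, adjusted p 0.0328) and CD8+ cells (1.78 ± 0.45, 0.0348), and in DN cells the log2 difference was 1.21 (0.113, or 0.042 with the experiment number as a block). Without cultured CD4+ replicate 1, the noisiest array, the CD4+ difference was 0.84 (adjusted p 0.214).

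Marcks (chr10:37133243-37138926) read 736.0 and 765.0 in fresh CD4+, 1216.2 and 519.0 in fresh CD8+ and 657.7 and 904.9 in fresh DN cells. After culture it read 1956.9 and 1319.4, 1367.8 and 1352.8, and 1215.1 and 1655.5. The states overlapped by a margin of 1 pair of arrays, since fresh CD8+ replicate 1 was just above cultured DN replicate 1. Marcks rose by 0.92 ± 0.22 on the log2 scale (adjusted p 0.00796). It was called in no subset by itself, with adjusted p 0.0685 in CD4+, 0.254 in CD8+ and 0.173 in DN cells.

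Fascin was the member whose culture difference varied most between the experiment numbers, by 1.21 for experiment 1 minus experiment 2. The _f_at probe set of Actb came next, at -1.09 ± 0.75. Fscn1 (chr5:142960355-142973189) read 710.3 and 520.5 in fresh CD4+, 609.8 and 540.0 in fresh CD8+ and 564.2 and 473.1 in fresh DN cells. The cultured values were 1703.9 and 489.6 in CD4+, 1062.3 and 472.5 in CD8+ and 1553.0 and 536.4 in DN cells. All 3 cultured arrays of experiment 1 were above every fresh array, and all 3 of experiment 2 lay within the fresh range or, for CD8+, just below it. The log2 difference over both experiments was 0.57 ± 0.35 (adjusted p 0.217), so Fscn1 was not called. Within experiment 1 the differences were 1.26, 0.80 and 1.46 in CD4+, CD8+ and DN cells (mean 1.17). Within experiment 2 they were -0.09, -0.19 and 0.18 (mean -0.03). The split by experiment number and a test of it were added after the values were seen. That test measures how far the difference between the 2 arrays of a group varies among the 3 subsets. The difference between the experiments was 1.21 ± 0.30, with an unadjusted p of 0.0025 and a limma adjusted p of 0.405.

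Dropping the 3 arrays whose Gapdh ratio was high, of which 2 are cultured arrays of experiment 1, moved the Fscn1 difference to 0.04 (adjusted p 0.904). Without cultured CD4+ replicate 2 it was 0.87 (adjusted p 0.0348), and without cultured CD4+ replicate 1 it was 0.27 (0.508). Cultured CD8+ replicate 1, which had a Gapdh ratio of 0.916, also read above every fresh array. The part of RNA quality in the Fscn1 reading was not tested. Marcksl1 also had a larger rise in experiment 1 (2.14, 1.97 and 1.73 in CD4+, CD8+ and DN cells) than in experiment 2 (1.04, 1.60 and 0.70), with a difference of 0.84 ± 0.33 (adjusted p 0.732). No member was called for this difference, and 0.0325% of all tested probe sets, 2 of 6159, were.

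**Figure D2:**
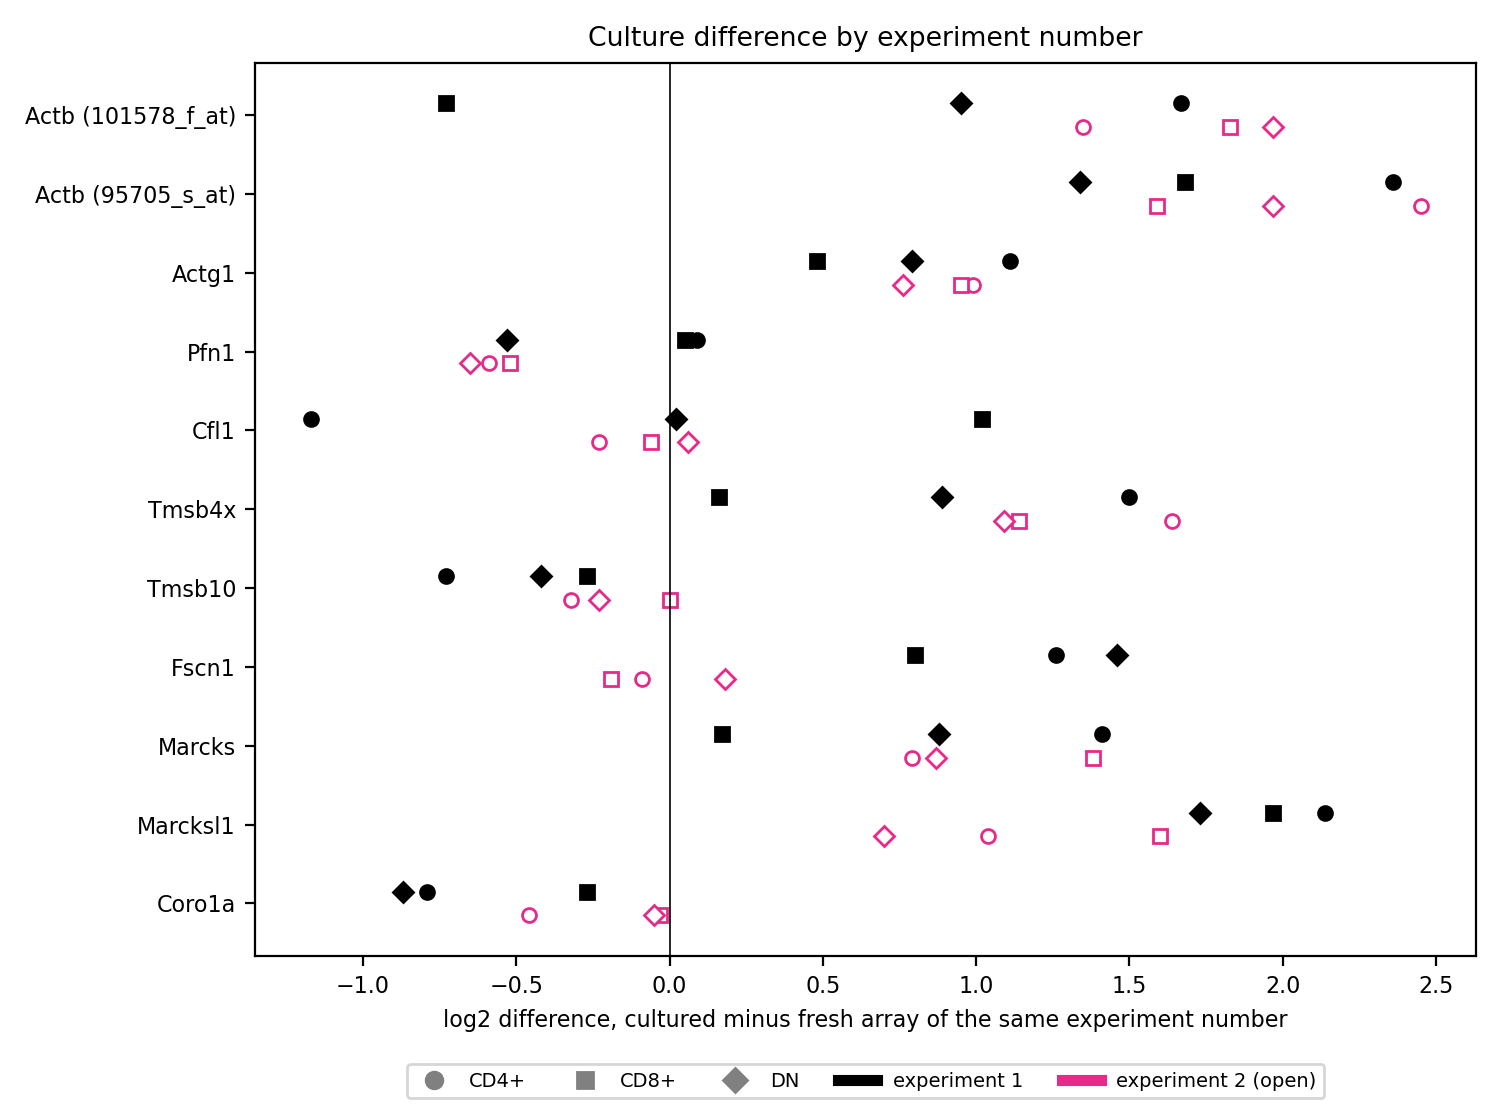
Log2 difference of each cultured array from the fresh array of the same subset and experiment number, with filled black symbols for experiment 1 and open pink symbols for experiment 2. The Fscn1 points split into 0.80 to 1.46 in experiment 1 and -0.19 to 0.18 in experiment 2, while all 6 points of Actb _s_at, Actg1, Tmsb4x, Marcks and Marcksl1 are above 0.

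With the 6 arrays of experiment 1 alone, 3 members were called, Actb _s_at, Marcksl1 and Fscn1, against 9.32% of all tested probe sets. With those of experiment 2 alone, 7 were called, against 37.4%. These were both Actb probe sets, Actg1, Tmsb4x, Marcks and Marcksl1 as higher and Pfn1 as lower (-0.59, adjusted p 0.0476). Each of these fits has 1 array per group. Their p-values and calls therefore measure how far the culture difference varies among the 3 subsets, not the spread between arrays of a group. Actb _s_at rose by 1.80 in experiment 1 and 2.00 in experiment 2, and Actg1 by 0.80 and 0.90.

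Tmsb10 (chr6:72957347-72958748), which encodes thymosin beta 10, another monomer-binding protein, was the 1 member called between subsets. Its fresh intensities were 4484.1 and 2787.6 in CD4+, 7850.7 and 5705.6 in CD8+ and 4515.8 and 3587.8 in DN cells. The cultured ones were 2706.2 and 2230.7 in CD4+, 6523.4 and 5725.4 in CD8+ and 3380.3 and 3063.8 in DN cells. In both states the 2 CD8+ arrays were above the other 4, an order that 10.7% of all tested probe sets had in fresh and 11.8% in cultured cells. Cultured CD8+ cells were 2.49-fold higher than cultured CD4+ cells (log2 1.31 ± 0.29, adjusted p 0.0382, and 0.0105 with the experiment number as a block). The other CD8+ differences were 0.92 from fresh CD4+ (adjusted p 0.169), 0.73 from fresh DN (0.396) and 0.93 from cultured DN cells (0.195).

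The Tmsb10 call was near the threshold. Leaving out any 1 of the 6 cultured arrays gave log2 differences of 1.18 to 1.45 and adjusted p-values of 0.0621 to 0.253, and leaving out fresh DN replicate 1 or 2 gave 0.0652 and 0.0653. After culture the mean log2 difference of Tmsb10 was -0.33 ± 0.16 (adjusted p 0.134), and -0.70 with a call for lower (0.00147) under quantile normalization, opposite in sign to that of Tmsb4x.

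The remaining 3 members were not called in any comparison. Pfn1 (chr11:70651844-70656799), which encodes profilin 1, read 888.3 to 1395.9 on fresh and 588.3 to 1088.9 on cultured arrays, with a log2 difference of -0.36 ± 0.18 (adjusted p 0.127). Without cultured CD4+ replicate 1 it was -0.51 (adjusted p 0.0218), and -0.59 (0.00922) with the 3 high-ratio arrays dropped. Coro1a (chr7:126699774-126704816), which encodes the filament-binding coronin of blood cells, read 2845.2 to 4557.1 on fresh and 2258.8 to 4404.4 after culture. Its log2 difference was -0.41 ± 0.18 (adjusted p 0.093), and -0.57 (0.0204) without cultured DN replicate 2, the highest cultured array at 4404.4.

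Cfl1 (chr19:5490455-5494031), the gene of cofilin 1, read 1782.2 to 4150.9 on fresh and 1467.8 to 3983.4 on cultured arrays, and the states overlapped throughout. Its mean log2 difference was -0.06 ± 0.23 (adjusted p 0.845), and the sign changed with single arrays left out. The 2 cultured CD8+ arrays, at 3605.6 and 3983.4, were above the other 4 cultured arrays. Cultured CD8+ cells exceeded cultured CD4+ cells by 0.99 ± 0.39 on the log2 scale, with an unadjusted p of 0.0295 and an adjusted p of 0.268.

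**Figure D3:**
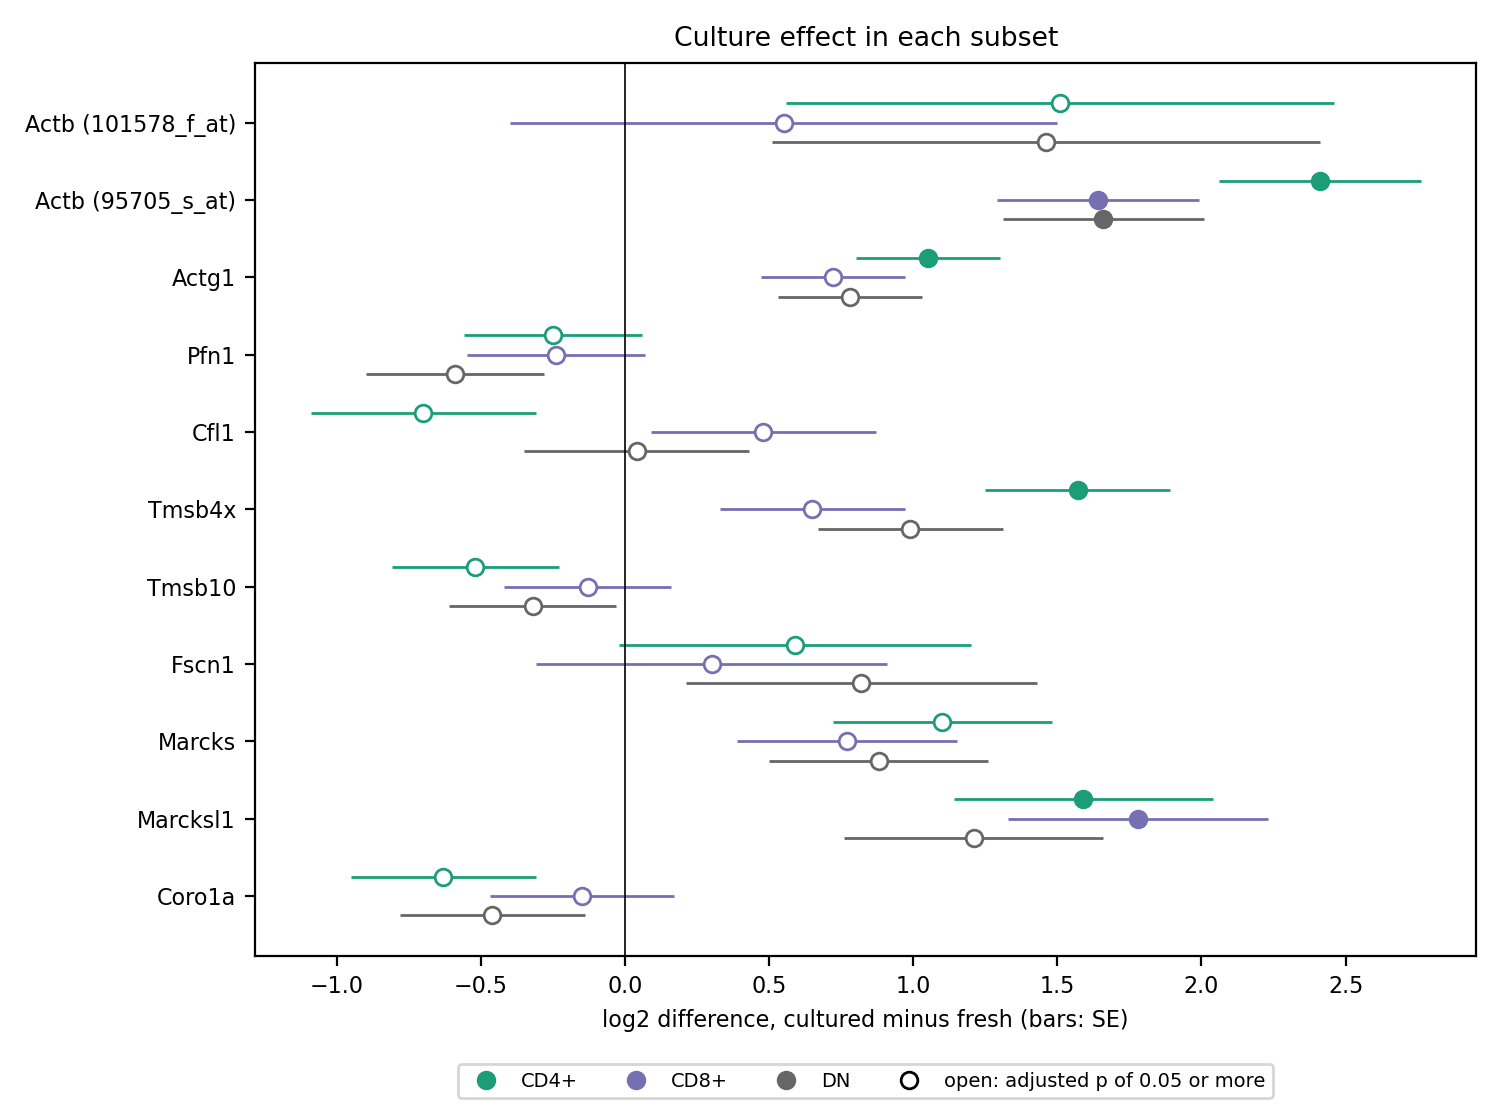
Log2 difference between cultured and fresh cells for each member in CD4+ (green), CD8+ (purple) and DN (grey) cells, with bars for the SE and filled points for an adjusted p under 0.05. Actb _s_at is filled in all 3 subsets, at 2.41, 1.64 and 1.66, and the points of Pfn1, Tmsb10 and Coro1a lie below 0 in all 3.

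Set by subset, 4 members were called after culture in CD4+ cells, 2 in CD8+ cells and 1 in DN cells, all as higher. The share of all tested probe sets called was 18.4% in CD4+ (7.53% as higher), 8.13% in CD8+ (4.01%) and 9.90% in DN cells (4.21%). These 3 counts do not show that the subsets differed. The differences in culture effect were tested themselves, and 0 members and 0.00% of all tested probe sets were called in limma for CD8+ minus CD4+, CD8+ minus DN and DN minus CD4+. At an unadjusted p under 0.05 there were 0 members in all 3, against 525, 250 and 127 of all probe sets. The smallest p was that of Cfl1, with 1.18 ± 0.56 for CD8+ minus CD4+ (adjusted p 0.593), and the difference of Tmsb4x was -0.92 ± 0.45 (0.593).

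Of the 7 calls within a subset, only that of Actb _s_at in CD4+ cells held with each array left out in turn, at 2.25 to 2.56. Without fresh CD4+ replicate 2, Actg1 in CD4+ cells had an adjusted p of 0.139, Tmsb4x 0.0808 and Marcksl1 0.191. The Actg1 call there was also lost without fresh CD4+ replicate 1 (0.0596) or cultured CD4+ replicate 1 (0.105), and that of Marcksl1 without fresh CD4+ replicate 1 (0.0929), fresh DN replicate 1 (0.0526) or fresh DN replicate 2 (0.0533). Actb lost its call in CD8+ cells without cultured CD8+ replicate 1 (1.30, adjusted p 0.167) or fresh CD8+ replicate 2 (1.34, 0.0761), and in DN cells without any 1 of the 4 DN arrays (1.44 to 1.88). Marcksl1 in CD8+ cells lost its call without any 1 of the 4 CD8+ arrays (1.59 to 1.97), and without any 1 of the 4 fresh CD4+ or DN arrays, with adjusted p-values of 0.0535 to 0.0617. Leaving out fresh CD8+ replicate 1 added calls within subsets, those of Actg1 and Tmsb4x among them. The share of all tested probe sets under that fit is not given here, so this says nothing particular to the members.

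Between the subsets of fresh cells 0 members were called, against 1.98% of all tested probe sets for CD8+ minus CD4+, 1.43% for CD8+ minus DN and 0.00% for DN minus CD4+. At an unadjusted p under 0.05 in limma there was 1 member in each of the first pair of comparisons, Tmsb10 in both. This stood against 683 and 583 of all probe sets. In the last there were 0, against 81. Between cultured subsets the Tmsb10 difference of CD8+ from CD4+ cells was the 1 call, against 2.29%. In that comparison 3 members had an unadjusted p under 0.05, against 940 of all probe sets. For CD8+ minus DN cells 0 were called against 1.30%, with 2 at an unadjusted p under 0.05 against 647 of all probe sets. For DN minus CD4+ cells 0 were called against 0.00%. Actb _s_at was lower in cultured CD8+ than in cultured CD4+ cells by a log2 difference of -1.19 ± 0.35, with an adjusted p of 0.125.

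Across the 12 arrays the called members followed each other on the log2 scale. Pearson's r was 0.97 between Actg1 and Tmsb4x, 0.93 between Marcks and Tmsb4x, 0.92 between Actg1 and Marcks, and 0.84 between Marcksl1 and Actg1. That of Fscn1 was 0.76 with Marcksl1 and 0.54 with Actg1, and Tmsb10 had -0.16 with Tmsb4x. These values describe arrays that share the split into fresh and cultured cells, and brightness in the case of Actg1 and Tmsb4x. The 3 other genes closest to Tmsb4x were Cd74 (0.988) and H2-Aa (0.981), which encode parts of the MHC class II pathway, and Tpt1 (0.982). Closest to Actg1 were 1110032A03Rik (0.976), St8sia4 (0.976) and Srgn (0.975), and closest to Marcksl1 were Gm9706 (0.979), Ogfod2 (0.971) and Cmpk2 (0.968). Marcks was closest to Oxt (0.949), Noct (0.948) and Zc3h15 (0.945), and Fscn1 to Casq1 (0.951), Phxr4 (0.937) and Zfp703 (0.926).

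Other genes of the actin pathway were read from 5 lists holding 93 genes, of which 74 had a probe set and 51 were tested. After culture 11 of the 51 rose and 11 fell, while of 4735 genes, each represented by its brightest probe set, 16.1% rose and 24.3% fell.

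Among nucleators, which start new filaments, 0 of 13 rose and 4 fell, with a median log2 difference of 0.04. Was, the gene of the Wiskott-Aldrich syndrome protein that activates the Arp2/3 complex in blood cells, read 566 to 1046 on fresh and 157 to 260 on cultured arrays. It fell by 2.00 on the log2 scale (adjusted p 1.49e-05), and its states did not overlap. Wipf1, whose product stabilises that protein, fell by 0.47 (0.0379), and the WAVE complex genes Nckap1l and Brk1 fell by 0.70 (0.0317) and 0.55 (0.0241). By subset, Brk1 had -0.96 in CD4+, -0.75 in CD8+ and 0.07 in DN cells.

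Of 14 tested genes for severing, capping and recycling, 3 rose and 3 fell (median 0.04). Scin, which encodes the filament-severing protein scinderin, was below the floor on all fresh arrays (6.8 to 29.2) and read 278 to 746 on cultured arrays, at least 4.69-fold higher (adjusted p 1.11e-06). Twf2, the gene of the monomer-binding twinfilin 2, fell by 1.37 (0.00278), and Coro1b, a coronin gene related to Coro1a, fell by 1.06 (0.00685). In CD4+, CD8+ and DN cells the log2 differences were -1.85, -0.29 and -1.97 for Twf2. Those of Coro1b were -1.67, -0.10 and -1.41. As given above, 0.00% of all tested probe sets were called for a difference in culture effect between subsets. Add1, which encodes a capping protein of the membrane skeleton, was called lower (-3.16, 0.0153), but its cultured intensities ran from -337 to 156, and values below 0 enlarge a difference on this scale.

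For crosslinkers and membrane linkers, 5 of 15 rose and 2 fell (median 0.06). Iqgap1, a scaffold that crosslinks filaments, rose by 0.99 (adjusted p 0.00033), and Ezr, which encodes the membrane linker ezrin, by 0.94 (0.0021). Evl, of the Ena/VASP family that extends filaments, fell by 1.96 (5.03e-05), and Dbnl, an adaptor between filaments and endocytosis, fell by 1.12 (0.000434). Among 7 myosin and tropomyosin genes, 2 rose and 2 fell (median -0.40). The tropomyosin genes Tpm1 and Tpm4, whose products coat filaments, rose by 1.54 (2.94e-05) and 1.00 (0.000802). The motor gene Myo1f fell by 2.72 (0.000427) and the myosin light chain gene Myl12b by 0.61 (0.0183).

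Of the muscle-type actins, 2 of 4 were tested, both with probe sets that may match other actins. Actg2, the gene of smooth muscle gamma actin, read 1452 to 2856 on fresh and 3033 to 5419 on cultured arrays and rose by 0.98 (0.00324).

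**Figure D4:**
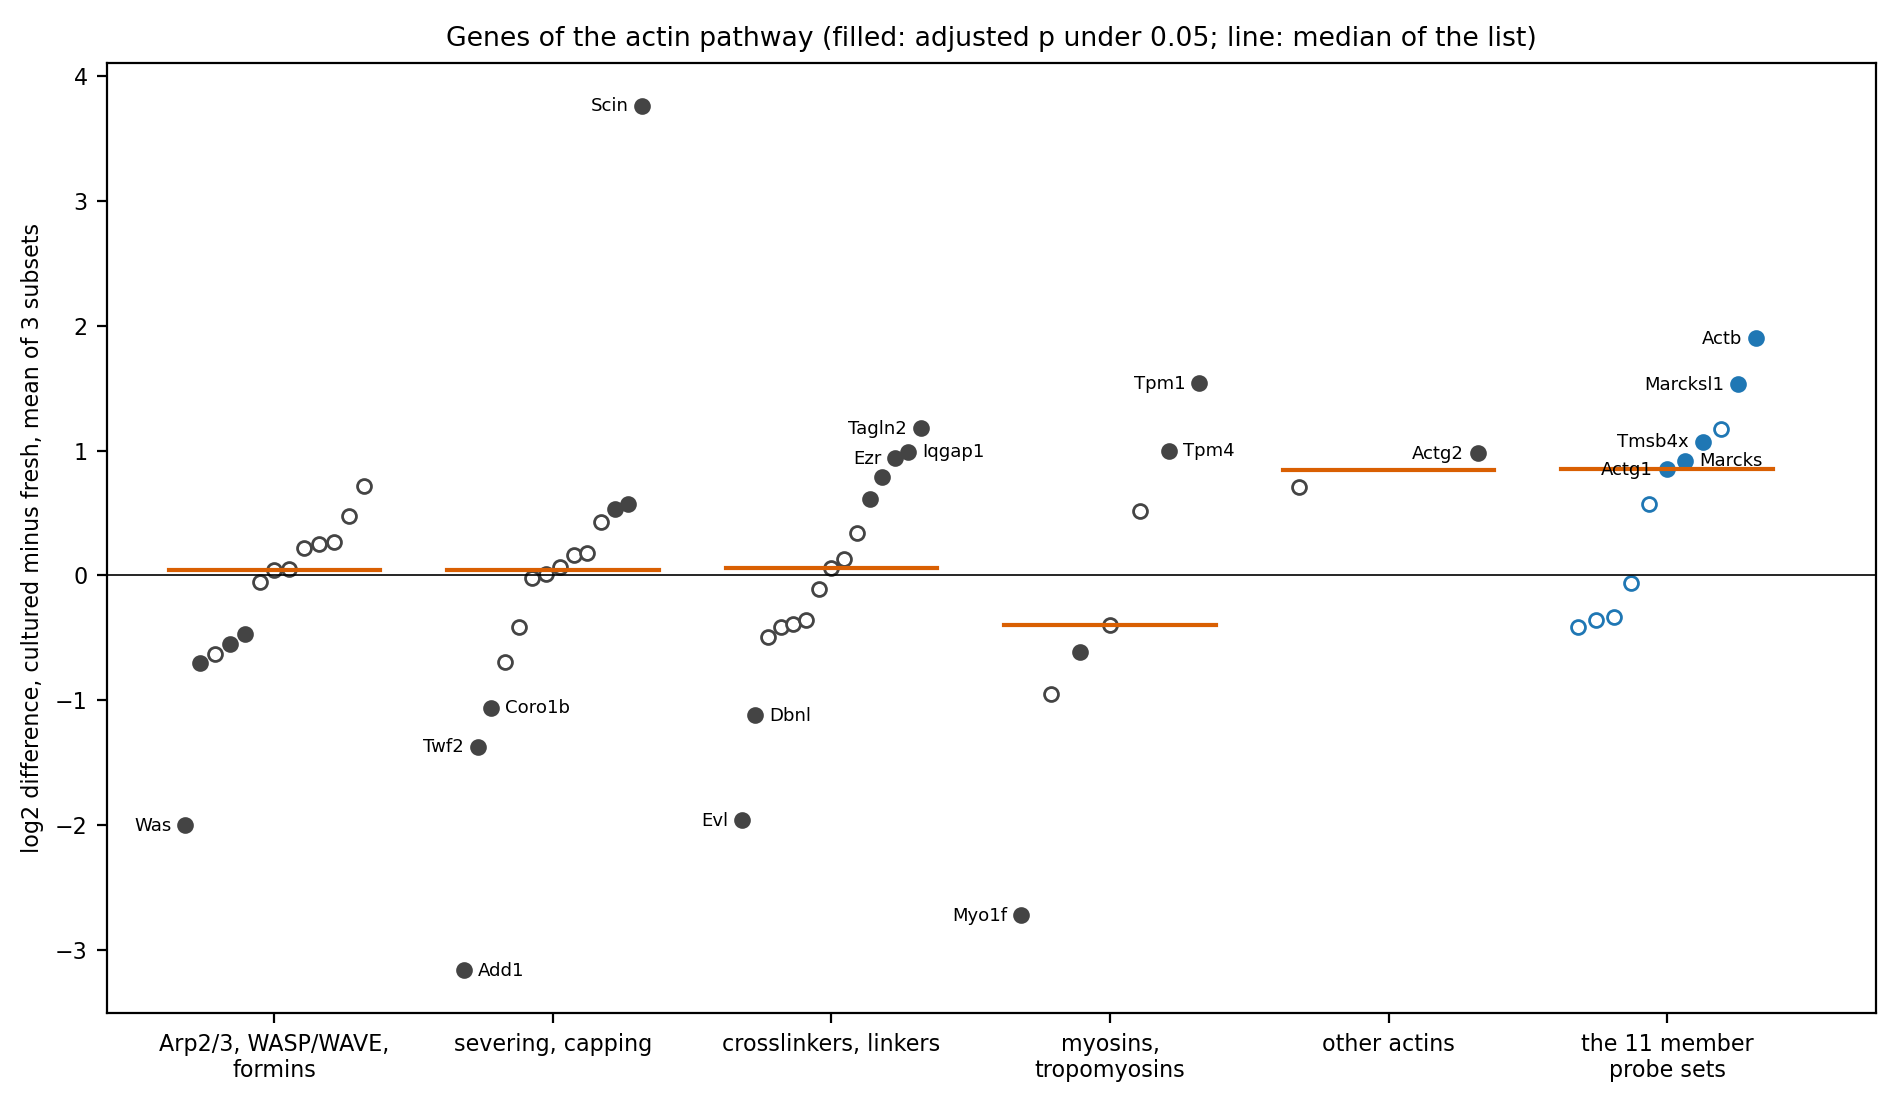
Mean log2 difference between cultured and fresh cells for the 51 tested genes of the 5 pathway lists (grey) and the 11 member probe sets (blue), with filled points for an adjusted p under 0.05 and orange lines for medians. The medians of the 4 larger lists lie between -0.40 and 0.06, that of the members at 0.85, and Scin, whose fitted value rests on fresh values below the floor, stands highest.

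The 5 called probe sets kept their call in 23 of 23 planned settings, except Actg1 in 22, where quantile normalization was the exception. Their lowest and highest log2 differences over these settings were 1.79 and 2.03 for Actb _s_at, 0.21 and 0.95 for Actg1, 0.43 and 1.24 for Tmsb4x, 0.71 and 1.12 for Marcks, and 1.11 and 1.78 for Marcksl1.

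**Figure D5:**
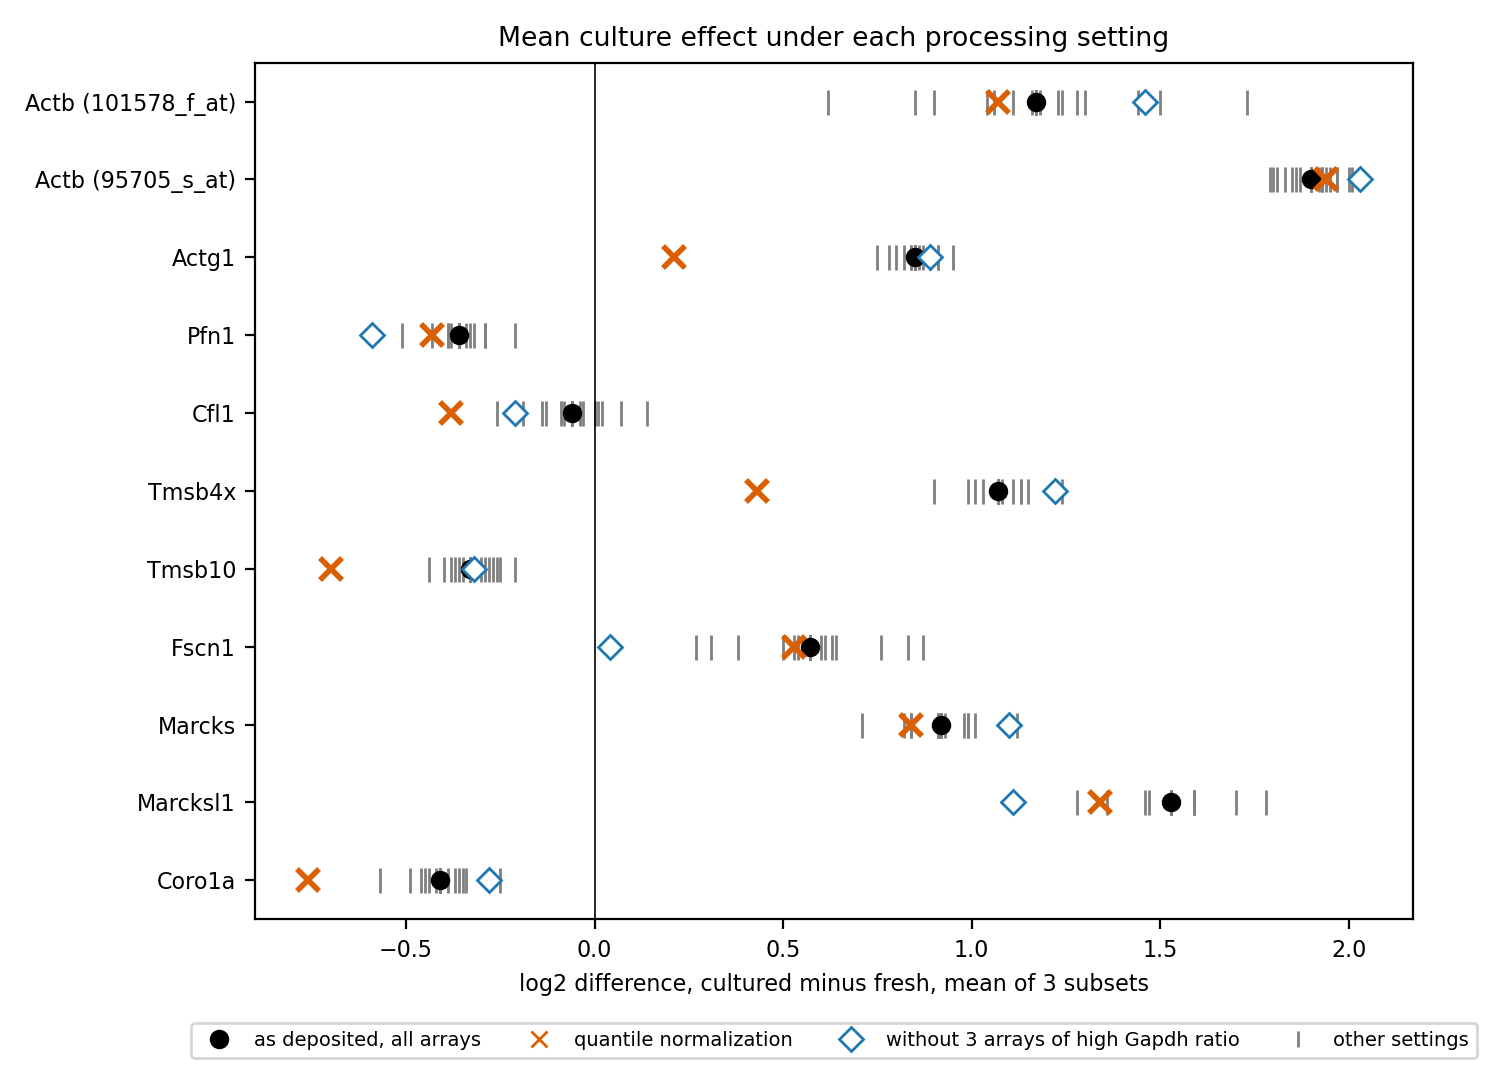
Mean log2 difference between cultured and fresh cells of each member under every planned setting, with black circles for the values as reported, orange crosses for quantile normalization, open diamonds for dropping the 3 high-ratio arrays and ticks for the rest. The cross moves Actg1 to 0.21 and Tmsb4x to 0.43, and the diamond moves Fscn1 to 0.04.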

How the data were processed

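Average Difference intensities, globally scaled by the authors, were deposited, per the labels. Their software was not given in the sources used here. These intensities were used without further normalization. Control probe sets, 66 of 12488, were left out of tests. The annotation named 1 gene for 10833 of the other 12422, several for 396 and none for 1193. All per-sample columns were used. A further pathway list is not reported here. Members and lists were chosen with earlier results of these data known. The rule for named genes was all members, up to 4 called genes of lowest p per pathway list, and the 3 genes of highest r for Fscn1 and for each member whose brightest probe set was called. Marker genes were named as examples after their values were seen.

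Intensities x were put on the scale log2((x + sqrt(x² + c²)) / 2), with c 45.7, the arrays' median noise. The floor was 2 times c, 91.4, and probe sets above it on at least 2 arrays, 6159, were tested. limma 3.58.1 (R 4.3.3) was run across all probe sets, with 1 mean per group over 12 arrays (6 residual degrees of freedom, median prior 5.09), eBayes with trend and robust estimation, and Benjamini-Hochberg adjustment. It was tested on simulated data. "At least" folds set a group below the floor at the floor. Other steps ran in Python 3.11.15 (numpy 2.4.6, pandas 2.3.3, matplotlib 3.10.9). The labels call the replicate number an experiment number. Deviations from group means of same-numbered arrays correlated at 0.106 to 0.444 in all 15 pairs of groups. The main fit did not use this pairing. A fit with the number as a block was also run and is given where it changed a call. The number of arrays, 2 per group, limits the precision.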

Additional observations from a re-analysis of the deposited data

Results flagged for a closer look

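The actin controls include probe sets for the opposite, sense strand, which the comparisons above did not use. The middle one was above the floor of 91.4 on all 6 cultured arrays, at 98.7 to 183.3, and on 1 fresh array, with fresh values of 43.0 to 122.4. Its cultured CD4+ replicate 1 (183.3), CD8+ replicate 1 (141.9) and DN replicate 1 (131.9) were above the highest fresh array, CD8+ replicate 1, and the states overlapped. The 3′ one read 74.1 to 237.2 on cultured arrays, highest on CD4+ replicate 1, and 22.8 to 94.7 on fresh arrays, highest again on CD8+ replicate 1. It was above the floor on 4 cultured arrays and 1 fresh array. The 5′ one stayed below the floor on all arrays. The Gapdh ratio was high on cultured CD4+ replicate 1 (1.97), cultured DN replicate 1 (1.34) and fresh CD8+ replicate 1 (2.55) but 0.916 on cultured CD8+ replicate 1. The part of RNA quality and noise in the sense-strand reading was not tested.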

How the results depend on the processing

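The number of members called on the mean culture effect was 5. It changed with some single arrays left out and with the arrays of experiment 1 or 2 alone, settings chosen after seeing the data. Both experiments had the same number of arrays, and fewer members were called in experiment 1 than in experiment 2, as given above. The cause was not tested. The calls within subsets were 7, with 3 to 11 on leaving out each array in turn and 11 with the 3 high-ratio arrays dropped. The 1 call between cultured subsets, Tmsb10, became 0 with no filter on dim probe sets (adjusted p 0.0638), without trend or robust estimation (0.101), with array weights (0.24) and with only the arrays compared (0.0922), and 0 to 1 on leaving out arrays; the first of these tests more probe sets and the last uses fewer arrays, and otherwise the cause was not tested. The calls between fresh subsets and for differences in culture effect were 0 in every setting run. The Cfl1 difference of -0.06 became 0.00 under median centring and ran from -0.26 to 0.14 on leaving out arrays, with positive values when cultured DN replicate 2 (0.01), cultured CD4+ replicate 1 (0.07), fresh DN replicate 1 (0.02) or fresh CD8+ replicate 2 (0.14) was left out. That of Fscn1 was -0.03 in experiment 2 alone. With the replicate block, 6 members were called on the mean and 10 within subsets. The added calls were the _f_at probe set of Actb and, in DN cells, Actg1, Tmsb4x and Marcksl1. The block changed no other member's call. The share of all tested probe sets called with the block is not given here, so these counts say nothing particular to the members. Over all tested probe sets the mean culture effect had 2420 calls with all arrays. Median centring moved the median of all probe sets by 0.064 and quantile normalization by 0.051. Signal over background limits the fold of the _s_at probe set of Actb, whose fresh values of 86.1 to 197.8 include 1 below the floor of 91.4.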
